A study of Mus musculus with 6 samples.

Results

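Stress granules are cytoplasmic clusters of stalled mRNAs and RNA-binding proteins that form when translation initiation stops, as after phosphorylation of eIF2α in heat. G3BP proteins start their assembly by binding RNA, and their partners CAPRIN1 and UBAP2L favour it while USP10 opposes it. TIA1 and its relatives, the cytoplasmic poly(A)-binding protein, ataxin-2 and the fragile X protein FMRP join the same clusters, and in neurons several of them also travel in RNA transport granules. Assembly draws on proteins already present, so the mRNAs measured here show the supply of transcripts and not the granules.

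The transcripts of 10 core genes were followed: G3bp1, G3bp2, Caprin1, Usp10, Ubap2l, Tia1, Tial1, Pabpc1, Atxn2 and Fmr1. Each was taken by its symbol from a table of 55538 Ensembl genes, matched 1 row, and passed the filter on low values, an average signal of 1 or more. All 10 are therefore among the 21954 genes tested. The cells were cortical neurons of C57BL/6 mice, taken on embryonic day 14.5, kept in medium with serum and rested for 2 h at 37 °C. They were then held for 60 min at 37 °C as the control, or heated at 42 °C for 15 or 60 min. The labels name no genetic change in any group, and no control of 15 min is described, so time in culture and heat cannot be told apart in the 15 min group. Each group has 2 libraries of total RNA, so that there are 6, named s1 and s2 within a group. These are bulk samples, in which fewer cells of a type and less RNA per cell cannot be told apart. Nothing in the labels says whether these came from separate cultures or animals, so p-values measure the spread between the libraries, which may be technical.

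Values are a normalised signal close to TPM, a length-corrected share of all transcripts, so levels can be compared between genes per length, but the number of reads behind them is unknown. One library differed from the rest. Control s1 listed 29309 genes with a signal of 1 or more, while the others listed 19035 to 21796. Among genes averaging 20 or more, its typical level relative to the geometric mean across libraries was 0.893, and that of the others was 0.961 to 1.08. The label of neurons was matched by the marker genes only in part. A list of 8 neuronal markers summed to a signal of 1394 to 2017 over the libraries, but 7 neural progenitor markers summed to 2309 to 3307. The sums were 204 to 398 for 6 erythroid markers, 31.4 to 49.6 for 5 astrocyte markers, and no more than 18.7 in any library for the microglial, endothelial, oligodendrocyte and fibroblast lists. The progenitor sum was 2309 and 2609 in control, 3307 and 2857 at 15 min, and 3066 and 2654 at 60 min. It was higher in every heated library than in both controls. The neuronal sum was 1394 and 1876 in control, 2001 and 2017 at 15 min, and 1806 and 1785 at 60 min. It lay above both controls at 15 min and between them at 60 min. Among single genes averaging 20 or more, 22.9% were higher than control without overlap at 60 min and 31.7% at 15 min. The part of these sums in the results was not tested. As a check on the heat, the summed signal of the inducible Hsp70 genes Hspa1a and Hspa1b was 4.40 and 3.53 in control, 11.1 and 7.12 at 15 min, and 1468 and 1345 at 60 min.

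Heat shock genes carry binding sites for heat shock factors in their promoters, so the promoters of the core genes were set beside that of Hspa1a. The first 2 belong to the founding nucleator and to the core gene with the largest difference at 60 min, and the third to an Hsp70 gene that rose. Each line gives the 250 bases before the annotated start on the gene's own strand, from RefSeq's GRCm38.p6, an earlier build than the authors' GRCm39. Capitals mark a match to paired heat shock units, GAANNTTC or TTCNNGAA, which read the same on both strands.
G3bp1, chr11:55469502-55469751, plus strand: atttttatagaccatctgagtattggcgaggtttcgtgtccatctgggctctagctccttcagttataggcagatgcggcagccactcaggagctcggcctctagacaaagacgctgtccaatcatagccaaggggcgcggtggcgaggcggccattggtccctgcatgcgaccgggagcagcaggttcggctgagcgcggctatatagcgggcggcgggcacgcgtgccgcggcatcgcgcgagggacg
Caprin1, chr2:103797079-103797328, minus strand: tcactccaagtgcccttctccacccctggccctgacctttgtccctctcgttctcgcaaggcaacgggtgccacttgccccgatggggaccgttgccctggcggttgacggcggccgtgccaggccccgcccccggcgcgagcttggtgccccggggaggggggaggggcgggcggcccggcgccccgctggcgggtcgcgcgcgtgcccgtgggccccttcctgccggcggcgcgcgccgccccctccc
Hspa1a, chr17:34972157-34972406, minus strand: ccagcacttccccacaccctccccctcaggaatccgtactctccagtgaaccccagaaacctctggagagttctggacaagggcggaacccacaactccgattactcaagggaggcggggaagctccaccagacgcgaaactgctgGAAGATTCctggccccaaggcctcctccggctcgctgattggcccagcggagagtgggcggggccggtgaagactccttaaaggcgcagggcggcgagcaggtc

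Windows that also take in the 50 bases after the start, 300 bases each, were at hand for 9 of the 10 core genes, all but Pabpc1. These were 15 windows, some of which overlap, and 0 of them held a paired unit. Among all 32851 windows 15.1% held such a pair, and Hspa1a and Hspa1b held 1 match each. No background matched for G and C content was made. With so few core windows, their lack of a match was not read as a trait of the core genes. A stricter motif of 3 units, either pair extended by another NN and GAA or TTC in turn, was in 0 core windows, in 0 windows of Hspa1a and Hspa1b, and in 0.603% of all windows, so it did not set the core genes apart from these heat shock genes. The core windows were rich in G and C: the median was 65.7%, against 52.7% over all windows, with 26 CpG dinucleotides against 7. The promoter of Caprin1 had the highest G and C content, 78.7%. A second annotated start of Atxn2 had the lowest, 32.7%, followed by Tia1 at 48.0% and Usp10 at 48.3%. The core genes lie on 9 chromosomes, with G3bp2 and Atxn2 both on chromosome 5.

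All core transcripts were well expressed in every library. Averaged over the 6 libraries, Caprin1 was the highest, at a signal of 797 ± 138 (SD, n = 6 here and in the next sentences), and Pabpc1 followed at 645 ± 118. Both lay above the other core genes in all 6 libraries. Next came Atxn2 at 193 ± 38.7 and G3bp2 at 185 ± 27.1, which changed places between libraries. Ubap2l averaged 126 ± 18.7, Tial1 109 ± 8.61 and Tia1 108 ± 17.5. Tial1 lay above Tia1 on average, but neighbours within this trio and the adjoining Usp10, at 84.2 ± 11.6, were not separated in every library. Fmr1 averaged 66.8 ± 15.5 and G3bp1 63.9 ± 9.96, again with overlap. The lowest of the core genes, G3bp1, still exceeded 87.5% of the 21954 genes tested.

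After 60 min at 42 °C no core transcript passed the test, while both Hsp70 genes did. Hspa1a averaged 753 ± 57.6 at 60 min and 2.06 ± 0.743 in control (SD, n = 2 each; limma adjusted p = 0.00066). The highest signal of any core gene was at most 1.83 times its own lowest over the 6 libraries. By limma, with p-values adjusted by Benjamini and Hochberg's method across the 21954 genes and a threshold of 0.05, 0 of 10 core genes were called, against 0.041% of all genes. At an unadjusted p under 0.05 there were 2 core genes, Caprin1 and Pabpc1, both higher, against 8.34% of all genes in either direction and 2.92% higher. With only the 4 libraries compared that count was 0, against 4.91% of all genes. In the fit of all 6 libraries the smallest adjusted p was 0.551, for Caprin1.

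**Figure D1:**
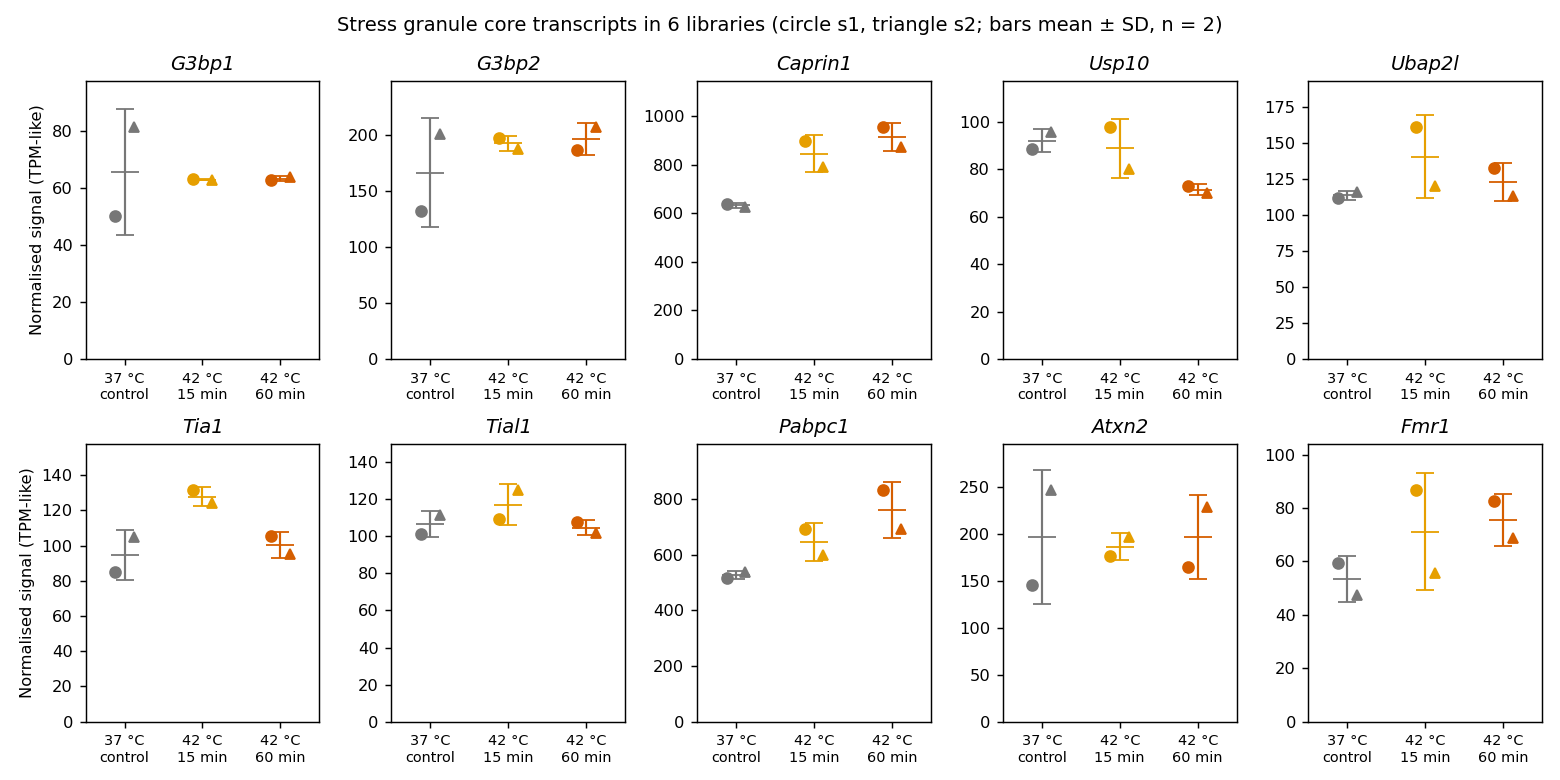
The normalised signal of each core gene (vertical axis, linear from 0) in the control, 15 min and 60 min groups, with s1 as a circle, s2 as a triangle and bars for the mean and SD of 2 libraries. Caprin1 and Pabpc1 sit higher in the 4 heated libraries than in both controls, Usp10 is lowest at 60 min, and the 2 controls lie far apart for G3bp1, G3bp2 and Atxn2.

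G3bp1 (ENSMUSG00000018583), the RNA-binding nucleator of the granule, had 50.02 and 81.2 in control, 63.2 and 62.7 at 15 min, and 62.6 and 63.9 at 60 min. The heated libraries were nearly alike and lay between the 2 controls. The log2 change at 60 min was −0.011 ± 0.254 (SE; 95% interval −0.62 to 0.60, limma adjusted p = 0.997). At 15 min it was −0.019 ± 0.254 (adjusted p = 0.988). The interval therefore reaches a difference of 0.6 on the log2 scale in either direction.

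G3bp2 (ENSMUSG00000029405), its paralogue, which can stand in for it in granule assembly, had 132 and 201 in control, 198 and 188 at 15 min, and 187 and 207 at 60 min. Control s2 lay within the heated range and control s1 below it. The log2 change was 0.27 ± 0.24 at 60 min (adjusted p = 0.844) and 0.24 ± 0.24 at 15 min (adjusted p = 0.766). Without control s1 these turned to −0.031 and −0.060, so the direction rests on that library.

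The balance within the pair does not depend on how a library is scaled. The signal of G3bp2 was 2.65 and 2.47 times that of G3bp1 in control, 3.13 and 2.995 times at 15 min, and 2.98 and 3.24 times at 60 min. The heated libraries did not overlap the controls in this ratio. With 2 libraries against 2 the smallest p of a two-sided exact permutation test is 0.333, so no test was made. A further limit is sequence shared with other genes. Of the 31-base stretches of the longest coding G3bp1 transcript, 13.7% occur in other genes, most often in Gm5913, which had a signal of 0.177 to 1.11. Of the 31-base stretches of the longest coding G3bp2 transcript, 47.4% also occur in Gm26582, a non-coding gene annotated on the opposite strand that has no row in the table.

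Caprin1 (ENSMUSG00000027184), a G3BP partner that promotes granules and is abundant in neuronal RNA granules, had the largest log2 change of the core genes at 60 min. It had 639 and 626 in control, 899 and 792 at 15 min, and 953 and 874 at 60 min. All 4 heated libraries lay above both controls. The mean was 914 ± 55.9 at 60 min, against 632 ± 8.82 in control (SD, n = 2 each), a ratio of 1.45. The log2 change of 0.53 ± 0.19 (95% interval 0.064 to 0.99) had an unadjusted p of 0.0315 by limma and an adjusted p of 0.551. At 15 min the mean was 845 ± 75.5 and the log2 change from control 0.42 ± 0.19 (adjusted p = 0.747). No 31-base stretch of the longest coding Caprin1 transcript was found in another gene's transcripts.

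Usp10 (ENSMUSG00000031826), a deubiquitinase that binds G3BP and keeps it from assembling, was the core gene with the lowest log2 change at 60 min. It had 88.6 and 95.6 in control, 97.7 and 80.1 at 15 min, and 73.0 and 70.0 at 60 min. Both 60 min libraries lay below all 4 others, and the 15 min libraries spanned the controls. The mean was 71.5 ± 2.15 at 60 min, against 92.1 ± 4.93 in control. The log2 change was −0.36 ± 0.19 against control (95% interval −0.81 to 0.087, adjusted p = 0.702) and −0.30 ± 0.19 against 15 min (adjusted p = 0.895).

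Ubap2l (ENSMUSG00000042520), an RGG-rich protein that helps to seed granules upstream of G3BP, had 112 and 116 in control, 161 and 120.2 at 15 min, and 132 and 113 at 60 min. Library s1 was the high one at both times in heat, and s2 stayed near the controls. The log2 change was 0.11 ± 0.21 at 60 min (adjusted p = 0.916) and 0.29 ± 0.21 at 15 min (adjusted p = 0.747). Of the 31-base stretches of Ubap2l 13.2% occur in other genes, most often in Gm17816, which had a signal of 0.956 to 1.76.

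The pair Tia1 and Tial1 encodes RNA-binding proteins with a prion-like domain, which take part in splicing in the nucleus and gather in granules under stress. Tia1 (ENSMUSG00000071337) had 84.8 and 105 in control, 131 and 124 at 15 min, and 106 and 95.1 at 60 min. Both 15 min libraries lay above the other 4, while the 60 min libraries overlapped the controls. Its log2 change was 0.43 ± 0.19 at 15 min (unadjusted p = 0.0616, adjusted p = 0.747), the largest of the core genes in that comparison, and 0.086 ± 0.19 at 60 min (adjusted p = 0.925). Between the heated groups it was −0.35 ± 0.19 for 60 min against 15 min (adjusted p = 0.895).

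Tial1 (ENSMUSG00000030846) had the narrowest range of the core genes. It had 101 and 111 in control, 109 and 125 at 15 min, and 108 and 102 at 60 min, with overlap between both heated groups and the control. Its log2 change was −0.024 ± 0.18 at 60 min (adjusted p = 0.979) and 0.13 ± 0.18 at 15 min (adjusted p = 0.816). The ratio of Tia1 to Tial1 was 0.836 and 0.942 in control, 1.204 and 0.993 at 15 min, and 0.982 and 0.935 at 60 min. It was above both controls in both 15 min libraries, and the 60 min libraries overlapped the controls. Another annotated gene, Gm44790, shares 7.26% of the 31-base stretches of Tia1 and had a signal of 11.7 to 26.7.

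Pabpc1 (ENSMUSG00000022283) encodes the main cytoplasmic poly(A)-binding protein, which coats mRNA tails and marks granules. It had 516 and 538 in control, 694 and 597 at 15 min, and 832 and 691 at 60 min. All 4 heated libraries lay above both controls. The mean was 761 ± 99.9 at 60 min, against 527 ± 15.4 in control, a ratio of 1.44. The log2 change was 0.52 ± 0.20 (95% interval 0.032 to 1.02, unadjusted p = 0.0402, limma adjusted p = 0.577). It was 0.29 ± 0.20 at 15 min (adjusted p = 0.747). Of its 31-base stretches 33.4% occur in other genes, most often in Gm16580, which had a signal of 2.11 to 5.20.

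Atxn2 (ENSMUSG00000042605) encodes ataxin-2, which binds the poly(A)-binding protein. It had 146 and 247 in control, 177 and 197 at 15 min, and 165 and 229 at 60 min. Library s2 was the higher in each group, and all heated values lay between the 2 controls. The log2 change was 0.033 ± 0.30 at 60 min (95% interval −0.69 to 0.76, adjusted p = 0.983) and −0.027 ± 0.30 at 15 min (adjusted p = 0.984).

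Fmr1 (ENSMUSG00000000838), on the X chromosome, encodes FMRP, a translational repressor of synaptic mRNAs that is carried in neuronal RNA granules. It had 59.6 and 47.5 in control, 86.7 and 55.7 at 15 min, and 82.5 and 68.8 at 60 min. Both 60 min libraries lay above both controls, while 15 min s2 fell between them. The mean was 75.7 ± 9.72 at 60 min, against 53.5 ± 8.52 in control. The log2 change was 0.49 ± 0.27 at 60 min (adjusted p = 0.722) and 0.38 ± 0.27 at 15 min (adjusted p = 0.747). Without 15 min s1 the change at 15 min was 0.065, and without 15 min s2 it was 0.69.

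**Figure D2:**
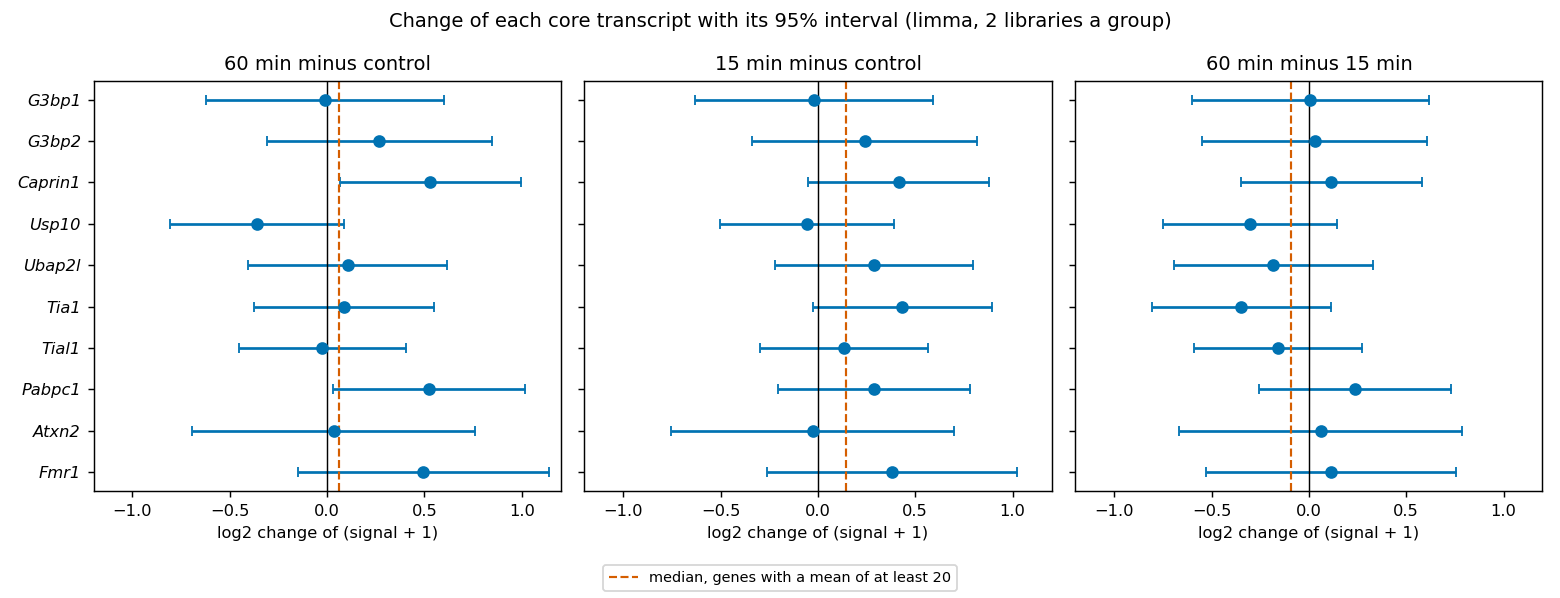
Log2 change of (signal + 1) for each core gene (points) with its 95% interval from limma (bars), for 60 min minus control, 15 min minus control and 60 min minus 15 min; the dashed line is the median change of genes averaging 20 or more. At 60 min the intervals of Caprin1 and Pabpc1 lie above 0 before adjustment, and no core gene passed after it.

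Seen together, 7 of the 10 core genes had higher values at 60 min than in control, against 57.8% of genes averaging 20 or more, and their median log2 change was 0.096. The median was −0.12 over all genes tested and 0.062 over the 6772 genes averaging 20 or more, a level that all core genes exceed. Caprin1, Pabpc1 and Fmr1 were higher without overlap between the groups, 3 of 10, against 12.8% of all genes and 22.9% of those more abundant genes. Usp10 alone was lower without overlap, 1 of 10, against 19.8% and 13.7%. The median of the core genes was −0.048, with 4 of 10 higher, without control s1 and 0.33 without control s2, so its sign rests on control s1. The median of genes averaging 20 or more moved the same way, to −0.0094 without control s1 and 0.14 without control s2. With median-of-ratios scaling in place of the deposited scale, 9 of the 10 core genes had higher values at 60 min and 10 of 10 at 15 min. That scaling moves all genes of a library by 1 factor. Under it the median of genes averaging 20 or more was 0.11 at 60 min and 0.21 at 15 min. The median of the core genes was 0.15 and 0.33. The share of genes averaging 20 or more with higher values under this scaling was not computed.

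After 15 min at 42 °C the core genes were likewise not separated from control by the test. By limma 0 of 10 core genes were called, against 0% of all genes, and 0 had an unadjusted p under 0.05, against 3.95% of all genes. The smallest adjusted p was 0.747. Caprin1, Tia1, Pabpc1 and Ubap2l were higher without overlap, 4 of 10, against 15.1% of all genes and 31.7% of those averaging 20 or more. None was lower without overlap, against 18.9% of all genes and 4.9% of those averaging 20 or more. The median log2 change was 0.26, with 7 of 10 genes at higher values, against a median of 0.15 and 71.6% higher over genes averaging 20 or more. Without 15 min s1 the median was 0.13, against 0.11 over genes averaging 20 or more. Without control s1 it was 0.16, against 0.054 over those genes, and without control s2 it was 0.32, against 0.25. This comparison and that of 60 min share the same 2 control libraries.

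Between the heated groups the core genes differed in sign. Of the 10, 6 had higher values at 60 min than at 15 min and 4 had lower ones, with a median log2 change of 0.018. The median was −0.035 with 4 higher without 15 min s2, and −0.058 with 3 higher without 60 min s2, so its sign rests on these libraries. Of genes averaging 20 or more, 34.1% had higher values, with a median of −0.094. The core genes called were 0, against 0.0182% of all genes, and 0 had an unadjusted p under 0.05, against 6.19% (the smallest adjusted p by limma was 0.895). With only the 4 libraries compared, 1 core gene had an unadjusted p under 0.05 by limma, against 15.4% of all genes. Usp10, Tia1 and Tial1 were lower at 60 min without overlap, 3 of 10, against 22.6% of all genes and 29.4% of those averaging 20 or more. None was higher without overlap, against 25.9% and 12.9%. Pabpc1 had the largest positive difference, 0.24 ± 0.20 (adjusted p = 0.919).

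Libraries with the same suffix deviated together, so each heated library was also set against the control of its own suffix. At 60 min Caprin1, Pabpc1, Fmr1 and G3bp2 were higher in both pairs, Usp10 was lower in both, and the other 5 core genes went opposite ways. Of genes averaging 20 or more, 37.3% were higher in both pairs, 21.2% were lower in both and 41.5% went opposite ways. The log2 ratio of Caprin1 was 0.578 within s1 and 0.482 within s2. That of Fmr1 was 0.471 and 0.534, that of Pabpc1 0.689 and 0.36, and that of Usp10 −0.28 and −0.451. For G3bp1 it was 0.324 within s1 and −0.346 within s2. At 15 min 6 core genes were higher in both pairs, 0 were lower in both, and 4 went opposite ways, against 48.4%, 10.1% and 41.5% of genes averaging 20 or more.

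With the suffix as a replicate block in limma, 0 core genes were called in any comparison, as without it; of all genes 0.0364% were called at 60 min and 0% at 15 min against control, and 0.0182% between the heated groups. The count at an unadjusted p under 0.05 was 3 core genes at 60 min, Caprin1, Pabpc1 and Fmr1, against 12.6% of all genes. At 15 min it was 2, Caprin1 and Tia1, against 8.55% of all genes, and between the heated groups 0, against 8.98%. The smallest blocked adjusted p of a core gene was 0.249, for Caprin1 at 60 min.

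**Figure D3:**
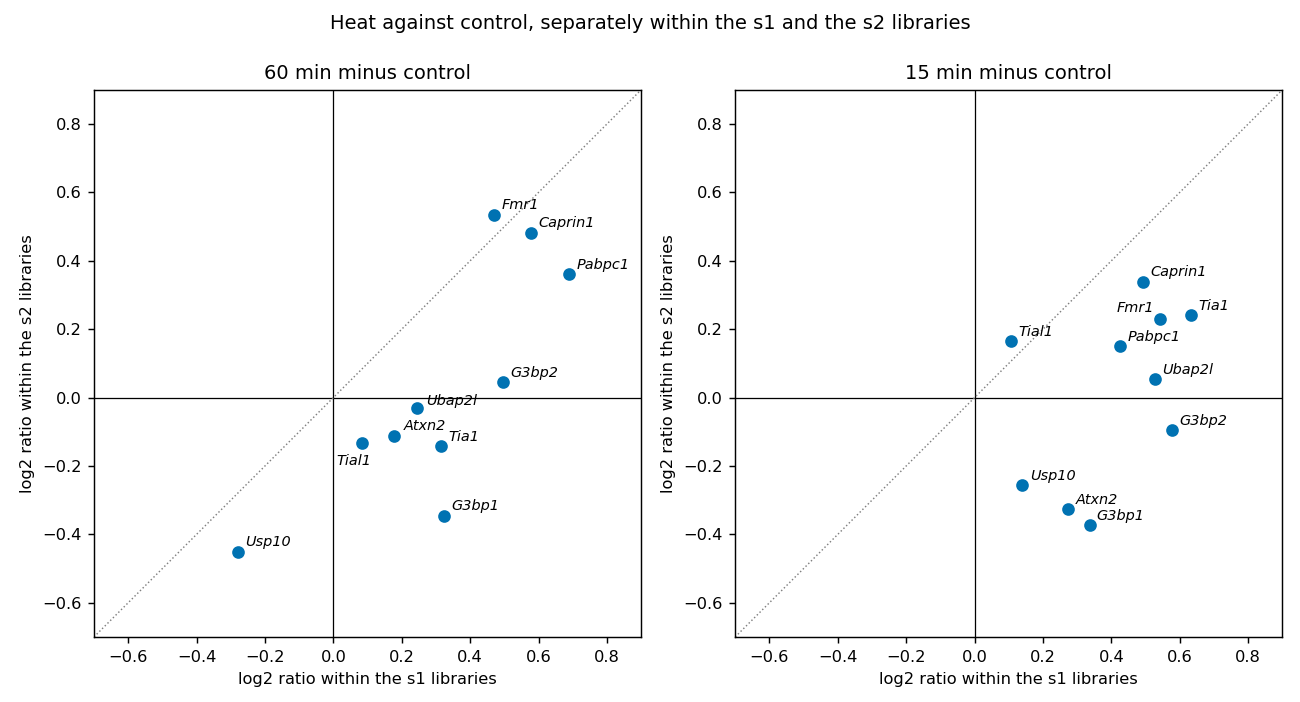
Log2 ratio of heat to control for each core gene within the s1 libraries (horizontal axis) and within the s2 libraries (vertical axis), at 60 min and at 15 min; the dotted line marks equal ratios. Caprin1, Pabpc1 and Fmr1 lie in the upper right quadrant at both times, Usp10 lies in the lower left at 60 min, and all points but Fmr1 at 60 min and Tial1 at 15 min fall below the line, with lower ratios in s2.

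Added up, the 10 core transcripts made 0.216% and 0.206% of the total signal in control, 0.248% and 0.245% at 15 min, and 0.262% and 0.265% at 60 min. The heated libraries did not overlap the controls. Caprin1 and Pabpc1 carried 53.7% to 66.1% of this sum. As signal not divided by the library totals, the other 8 genes summed to 774 and 1004 in control, 1023 and 952 at 15 min, and 915 and 948 at 60 min. Both 60 min sums lay between the 2 controls, so on this scale the other 8 genes were not apart from control at 60 min. The totals run from 892768 to 1056383, so these sums are not on the scale of the shares above. Shares of the other 8 genes were not computed.

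The paralogues of the core genes gave 0 calls by limma in any comparison. Of all genes 0.041% were called at 60 min and 0% at 15 min against control, and 0.0182% between the heated groups. Of 10 listed, 7 passed the filter, and Pabpc2, Pabpc5 and Pabpc6 were below 1 in every library. At 60 min 6 of the 7 had higher values than control, with a median log2 change of 0.22. Among genes averaging 20 or more 57.8% were higher, with a median of 0.062. Of the 7, 0 reached an unadjusted p under 0.05 by limma, against 8.34% of all genes. At 15 min 4 of the 7 were higher (median 0.15), against 71.6% of genes averaging 20 or more (median 0.15). Fxr2, a relative of FMRP and the most abundant of them, had 355 and 344 in control, 449 and 423 at 15 min, and 456 and 438 at 60 min. Fxr1, its other relative, had 75.9 and 82.8 in control, 105 and 94.4 at 15 min, and 102 and 111 at 60 min. In both, all 4 heated libraries lay above both controls. Among genes averaging 20 or more, 22.9% were higher than control without overlap at 60 min and 31.7% at 15 min. At 60 min the log2 change was 0.42 ± 0.18 for Fxr1 (adjusted p = 0.600) and 0.35 ± 0.18 for Fxr2 (adjusted p = 0.687).

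The remaining paralogues gave smaller or uneven differences. Ubap2, the relative of Ubap2l, averaged 135 ± 4.05 at 60 min and 116 ± 3.60 in control. Pabpc4, an inducible poly(A)-binding protein, averaged 55.4 ± 5.36 at 60 min and 46.6 ± 5.38 in control. Atxn2l, the relative of ataxin-2, averaged 225 ± 10.9 at 60 min and 199 ± 75.3 in control, where s1 had 146 and s2 had 252. Caprin2, far below Caprin1, averaged 9.91 ± 0.187 at 60 min and 10.5 ± 3.25 in control.

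Among 48 other stress granule components, 37 had higher values at 60 min than in control, with a median log2 change of 0.25. By limma 0 were called, and at an unadjusted p under 0.05 there were 4 higher and 1 lower. Of genes averaging 20 or more, 57.8% had higher values, and of all genes 0.041% were called and 8.34% had such a p, 2.92% with a higher value. Elavl1, which encodes HuR, a stabiliser of AU-rich mRNAs, averaged 139 ± 10.3 at 60 min and 89.9 ± 15.8 in control (adjusted p = 0.501). At 15 min 40 of the 48 had higher values (median 0.21), against 71.6% of genes averaging 20 or more (median 0.15). By limma 0 were called, against 0% of all genes, and 3 had an unadjusted p under 0.05, against 3.95%. The smallest p belonged to Elavl2, a neuronal relative of Elavl1, at 297 ± 42.4 at 15 min against 193 ± 44.5 in control (adjusted p = 0.747). For 60 min against 15 min, the smallest p belonged to Elavl4, another neuronal relative, at 102 ± 0.426 at 60 min and 139 ± 13.4 at 15 min (adjusted p = 0.785).

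Processing bodies are neighbouring granules that hold the mRNA decay machinery. Of 24 components 13 were higher and 11 lower at 60 min (median 0.021), against 57.8% higher among genes averaging 20 or more. By limma 0 were called, against 0.041% of all genes, and 1 had an unadjusted p under 0.05, against 8.34%. That gene was Eif4enif1, which encodes the eIF4E transporter 4E-T, at 41.1 ± 1.97 at 60 min and 60.9 ± 5.17 in control (adjusted p = 0.502). Pnrc1 averaged 76.8 ± 19.9 at 60 min and 114 ± 29.7 in control (adjusted p = 0.665). At 15 min 17 of 24 were higher (median 0.12), close to the 71.6% of genes averaging 20 or more, with Lsm1, a subunit of the decapping activator ring, at 43.6 ± 4.04 at 15 min against 31.3 ± 5.74 in control and Lsm14b at 220.0 ± 4.99 at 15 min against 173 ± 29.2 in control (adjusted p = 0.747 for both).

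Upstream of the granules, the 9 genes of eIF2α kinases, eIF2 subunits and the phosphatase partners gave 0 calls in any comparison by limma. Only Ppp1r15a had an unadjusted p under 0.05, at 60 min against both control and 15 min. Of all genes 0.041% were called at 60 min and 0% at 15 min against control, and 0.0182% between the heated groups. An unadjusted p under 0.05 was found for 8.34%, 3.95% and 6.19% of all genes in the same order. Ppp1r15a, which encodes GADD34, the inducible subunit that reverses eIF2α phosphorylation, had 18.9 and 32.2 in control, 21.2 and 26.1 at 15 min, and 11.9 and 14.3 at 60 min. Both 60 min libraries lay below the other 4 (log2 change from control −0.87 ± 0.29, limma unadjusted p = 0.0223, adjusted p = 0.524). Among genes averaging 20 or more, 13.7% were lower at 60 min than in control without overlap, and 29.4% lower than at 15 min. Eif2ak4, the kinase GCN2, had 18.4 and 17.9 in control, 13.5 and 13.9 at 15 min, and 13.7 in each 60 min library (adjusted p = 0.660 at 60 min and 0.747 at 15 min). Eif2s1, which encodes eIF2α itself, averaged 56.2 ± 14.7 in control, 73.4 ± 7.86 at 15 min and 61.8 ± 4.66 at 60 min.

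**Figure D4:**
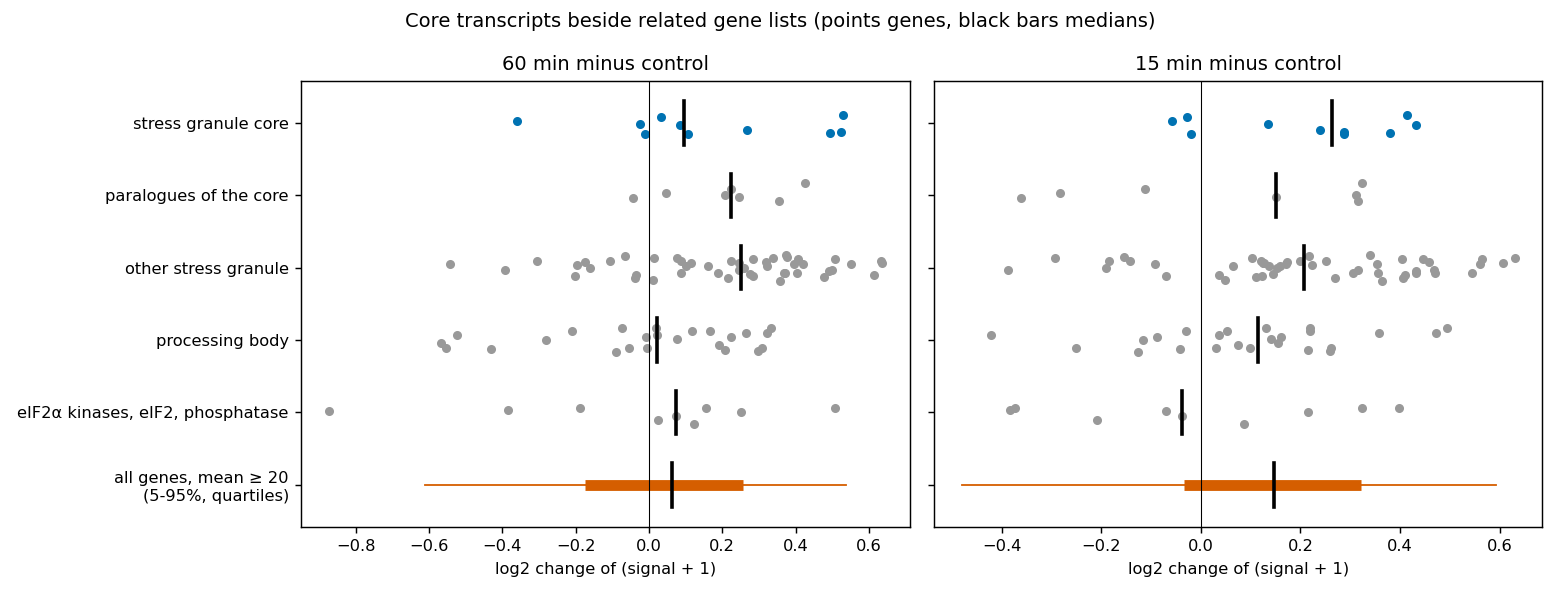
Log2 change of (signal + 1) of each gene tested (points) in the core list and 4 related lists, with list medians as black bars, at 60 min and 15 min against control; the lowest row gives the quartiles (thick line), the 5th to 95th percentiles (thin line) and the median of all genes averaging 20 or more. The core median is 0.096 at 60 min and 0.26 at 15 min, beside 0.062 and 0.15 for those genes.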

How the data were processed

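The authors deposited a normalised signal per gene for 6 libraries of total RNA. Its name calls it TPM, but column totals run from 892768 to 1056383, so a further scaling that is not stated was applied. Per the submitters' processing notes, kallisto and sleuth were used with GRCm39, and per the labels' protocols the kit removes ribosomal RNA and reads were single-end. How strand was handled and transcripts summed is not stated in the labels. Depth is unknown. Columns were assigned to groups only, since s1 and s2 do not settle which sample each is. Symbols came from an Ensembl ID table, for 52028 genes.

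The signal was taken as log2(value + 1), which understates changes of low genes. Genes averaging 1 or more were fitted with limma 3.58.1 in R 4.3.3 (all 6 libraries, group as the only term, mean-variance trend, 3 residual degrees of freedom, two-sided, Benjamini-Hochberg over 21954 genes). Intervals are 95% from the same fit, before any adjustment. Over the 6772 genes averaging 20 or more, the deviations of same-suffix libraries correlated at 0.464 (60 min and control), 0.436 (15 min and control) and 0.644 (60 min and 15 min), so suffixes were taken as pairs; the pairing comes from these data and not from the labels.

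The genes and lists were chosen with earlier results of these data known. The rule named all core genes, 6 paralogues, Hspa1a and Hspa1b, and in each other list and comparison the genes past the threshold or else the 2 with the smallest unadjusted p. Some genes that the rule names are not reported here. Shared 31-base stretches were counted on both strands in the longest coding transcript of GENCODE M21. RNA recovered with ribosomes was not analysed here.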

Additional observations from a re-analysis of the deposited data

How the results depend on the processing

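Under the 14 alternatives tried, 0 core genes were called in any of the 3 comparisons. The count over all genes moved: 9 at 60 min against control became 5 with a pseudocount of 5, 5 with no filter on low values, 2 with only the 4 libraries compared, and 0 to 146 without 1 library. It was 48 without control s1, 146 without control s2, 2 without either 15 min library and 0 without either 60 min library. At 15 min, 0 became 0 to 216 without 1 library (41 without control s1, 216 without control s2). Between the heated groups, 4 became 0 with only the 4 libraries compared and 0 to 2 without 1 library. With the replicate block the counts were 8, 0 and 4.

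Of 30 changes of core genes, 15 kept their sign under all 14 alternatives, among them all 3 of Caprin1 and of Pabpc1. Median-of-ratios scaling turned G3bp1 (0.039), Tial1 (0.027) at 60 min, G3bp1 (0.044), Usp10 (0.0060) and Atxn2 (0.037) at 15 min, and G3bp1 (−0.0047) between heated groups, so that 9 of 10 at 60 min and 10 of 10 at 15 min were above control. The same scaling raised the median of genes averaging 20 or more to 0.11 and 0.21, against 0.062 and 0.15 on the deposited scale. Without 1 library, changes from control at 60 min ran from −0.36 to 0.33 for G3bp1, −0.031 to 0.57 for G3bp2, −0.0049 to 0.22 for Ubap2l, −0.066 to 0.24 for Tia1, −0.091 to 0.043 for Tial1 and −0.34 to 0.41 for Atxn2. At 15 min they ran from −0.36 to 0.33 for G3bp1, −0.060 to 0.54 for G3bp2, −0.20 to 0.085 for Usp10 and −0.40 to 0.35 for Atxn2. Between heated groups they ran from −0.0067 to 0.022 for G3bp1, −0.045 to 0.10 for G3bp2, −0.39 to 0.026 for Ubap2l, −0.17 to 0.29 for Atxn2 and −0.20 to 0.43 for Fmr1. The median of the core genes ran from −0.048 to 0.33 at 60 min, 0.13 to 0.34 at 15 min and −0.058 to 0.019 between heated groups. Without reversing, the change of Fmr1 ran from 0.33 to 0.65 at 60 min and 0.065 to 0.69 at 15 min, and that of Ubap2l from 0.080 to 0.50 at 15 min. Where a library is left out, the lone library of its group is assumed to vary like the others. Depth is unknown, so no limit of detection was set.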

Other observations

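CAPRIN1 and USP10 compete for the same site on G3BP, CAPRIN1 favouring granules and USP10 opposing them. The signal of Usp10 was 0.139 and 0.153 times that of Caprin1 in control, 0.109 and 0.101 times at 15 min, and 0.0766 and 0.0800 times at 60 min. The 3 groups did not overlap, and the ratio does not depend on the scaling of a library. At 60 min Caprin1 by itself lay above control and Usp10 by itself below it, both without overlap. Their ratio therefore could not overlap between those groups. It is a ratio of mRNAs, and the proteins were not measured. This ratio was chosen after the values of both genes were seen, so it is given without a test. Set against the sum of G3bp1 and G3bp2, Usp10 was at 0.486 and 0.339 in control, 0.375 and 0.32 at 15 min, and 0.293 and 0.258 at 60 min, with the 60 min libraries below the other 4.

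Among genes averaging 20 or more, those whose pattern over the 6 libraries was closest to that of G3bp1 were Zfp513, a zinc finger gene, Ppp2r1a, a scaffold subunit of protein phosphatase 2A, and Nop53, a ribosome biogenesis factor. Their root mean square differences from G3bp1, on centred log2 values, were 0.0364, 0.037 and 0.0453 among 6750 genes compared. Like G3bp1, each was lowest in control s1 and highest in control s2, as in Ppp2r1a with 124 and 190.0 in control, 145 and 151 at 15 min, and 149 and 148 at 60 min.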
